A study of Mus musculus with 2 samples.

Results

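Insulin and the insulin-like growth factors (IGFs) signal through a small set of genes, and 10 of them were read in hippocampal RNA from the mouse strain B6CASTF1/J. They were chosen by name from the 55536 annotated mouse genes: the growth factors Igf1 and Igf2, the receptors Igf1r, Igf2r and Insr, the binding proteins Igfbp2, Igfbp4 and Igfbp5, and the adaptors Irs1 and Irs2. All 10 were found in the annotation and were expressed in both animals. The study sequenced total RNA from hippocampus of 2 male F1 hybrid mice aged 36 days, with C57BL/6J and CAST/EiJ parents. The animals form a single untreated group, replicate 1 and replicate 2, with 1 library each, so no condition was compared. A shared donor identifier is given for the samples, with a biosample for each, and they were taken as separate animals. The tissue label names a layer of the hippocampus and the description only the hippocampus, so the dissected part is not given.

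IGF1 and IGF2 are secreted peptides related to insulin. They act mainly through the IGF1 receptor, a tyrosine kinase closely related to the insulin receptor, whereas the IGF2 receptor takes IGF2 into the cell for breakdown. Binding proteins hold the peptides outside the cell and set how much reaches a receptor. An active receptor phosphorylates the adaptors IRS1 and IRS2, which recruit PI3-kinase and so lead to Akt, to mTORC1 and to the FoxO transcription factors. In the brain these peptides act on the growth and survival of neurons and on myelination. Igf2 and Igf2r are imprinted in mice, Igf2 being expressed from the paternal copy and Igf2r from the maternal copy in most tissues. The deposited tables do not separate the parental copies.

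The libraries held 28665100 expected counts in replicate 1 and 29633700 in replicate 2 over annotated genes, and 14879 genes reached 1 TPM in both. TPM is a relative abundance corrected for transcript length, and an expected count is a number of reads assigned by a model. Markers of hippocampal cells were present in both libraries, led for excitatory neurons by Camk2a at 1347 and 1414 TPM and for astrocytes by Slc1a2 at 743 and 739 TPM, in replicates 1 and 2 in that order. Choroid plexus transcripts set the libraries apart, with the 12 listed markers summing to 11.3 TPM in replicate 1, against 198 TPM in replicate 2. Because tissue was sequenced in bulk, fewer cells of a type and less RNA per cell cannot be told apart. The 10 members took 0.0684% of the gene counts in replicate 1 and 0.0736% in replicate 2.

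By TPM summed over all transcripts of a gene, Igf2 was the most abundant member and Igf1 the least. The coding forms Igf2-201, Igf2-202, Igf2-204 and Igf2-205, of 2503 bases or more, had 7.7, 7.07, 0.65 and 2.13 TPM in replicate 1. In replicate 2 they had 10.3, 7.34, 0.22 and 3.3 TPM, in the first deposited transcript table. Irs2, with 1 annotated transcript, had 26.4 and 31.1 TPM in replicates 1 and 2. In that table Igf2 thus ranked first only with its short or non-coding transcripts included. Levels ran from 36.6 ± 7.50 TPM for Igf2 to 3.16 ± 0.0354 TPM for Igf1 (mean ± SD, n = 2 libraries). Among the 22015 protein-coding genes, ranked by mean TPM from the lowest, Igf2 stood at percentile 87.1 and Igf1 at 49.7. From high to low the order was Igf2, Igfbp4, Irs2, Igfbp5, Insr, Igfbp2, Igf1r, Igf2r, Irs1 and Igf1. The ranges of the libraries overlapped for the neighbours Igfbp4 and Irs2, Irs2 and Igfbp5, and Insr and Igfbp2, so their order is not set by these data. The other 6 neighbouring pairs did not overlap, but the gaps between Igf2 and Igfbp4 and between Igfbp2 and Igf1r were narrow. The lower Igf2 value was 31.3 TPM and the higher Igfbp4 value 30.8 TPM. The lower Igfbp2 value was 17.8 TPM and the higher Igf1r value 17.6 TPM. The second of the deposited transcript tables, summed per gene, gave the opposite order for Irs2 and Igfbp5 and for Insr and Igfbp2, and the same order for the other 7 neighbouring pairs. Its values were higher for every member, by 1.46 to 1.92 times, against a median of 1.69 times over 12711 protein-coding genes, so values are compared within a table only.

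**Figure D1:**
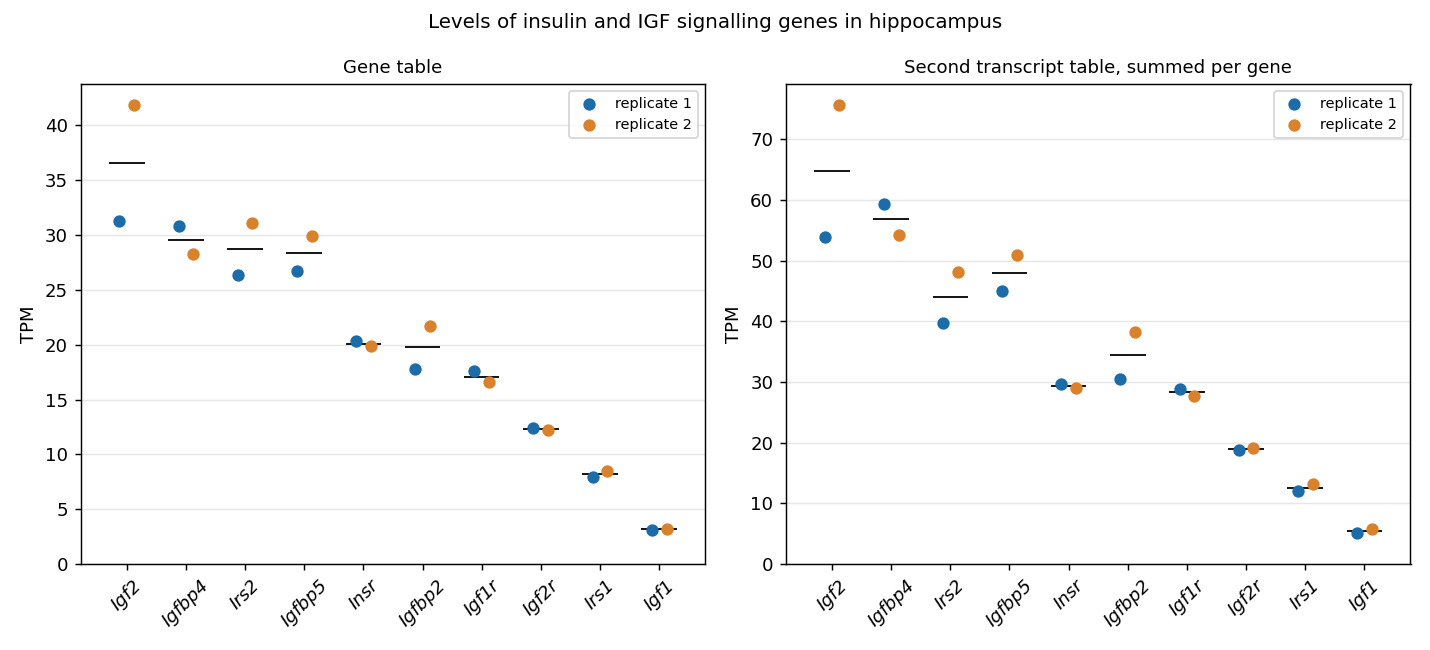
TPM of the 10 members (vertical axis) by gene (horizontal axis), in the gene table on the left and in the second transcript table summed per gene on the right. Each point is 1 library, with replicate 1 left of replicate 2, and each bar is the mean of the 2 libraries. With all transcripts of a gene summed, the short and non-coding ones included, Igf2 was highest and Igf1 lowest in both tables. The vertical scales differ.

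The growth factor genes lay far apart in level. Igf2 (ENSMUSG00000048583.16, chr7:142650766-142666816, minus strand, mm10) had 31.3 TPM from 1298 counts in replicate 1 and 41.9 TPM from 1792 counts in replicate 2. Igf1 (ENSMUSG00000020053.18, chr10:87858265-87937042, plus strand), which in the brain is made by neurons and glia, had 3.13 TPM from 320 counts in replicate 1 and 3.18 TPM from 323 counts in replicate 2. By gene TPM, in which short Igf2 transcripts weigh heavily, Igf2 was thus 9.99 times Igf1 in replicate 1 and 13.2 times in replicate 2. Igf1 differed between the libraries by less than its counting error, whereas Igf2 was lower in replicate 1 in the test given with the ratios. The nearest relatives of the members were scarcely found. Ins1 and Ins2, the insulin genes of the mouse, had 0 counts in both libraries, and a count of 0 allows up to 3 counts, or 0.105 CPM (counts scaled to the library total) in replicate 1 and 0.101 CPM in replicate 2. Ins2 lies only 11839 bases from Igf2. The relaxin gene Rln3 was also at 0 counts in both. The highest of the other insulin-like peptides were Insl3, with 13 and 16 counts in replicates 1 and 2, Rln1, with 15 and 8, and Insl5, with 4 and 7.

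All 3 receptor genes were expressed, and each had close values in both animals. Insr (ENSMUSG00000005534.10, chr8:3122061-3279617, minus strand) had 20.3 and 19.9 TPM from 2562 and 2563 counts in replicates 1 and 2. Igf1r (ENSMUSG00000005533.10, chr7:67952827-68233668, plus strand) had 17.6 and 16.6 TPM from 3417 and 3529 counts. Igf2r (ENSMUSG00000023830.14, chr17:12682406-12769664, minus strand) had 12.4 and 12.2 TPM from 2111 and 2230 counts. In the gene table the receptors thus differed more from each other than each did between the animals. Their SDs were 0.304, 0.721 and 0.148 TPM for Insr, Igf1r and Igf2r. This did not hold in the second table for Insr, with 29.6 and 29.1 TPM, and Igf1r, with 28.9 and 27.8 TPM. By gene TPM Insr was 1.16 times Igf1r in replicate 1 and 1.20 times in replicate 2. In the second table it was 1.03 and 1.05 times, the pair being nearly level. The main coding transcripts had the opposite order, Insr-201 with 11.6 and 10.9 TPM and Igf1r-201 with 14.1 and 14.0 TPM. The second table gave 18.3 and 17.9 TPM for Insr-201, against 21.7 and 21.7 TPM for Igf1r-201. Insr-202, annotated as a retained intron, held 7.29 and 7.44 TPM of the Insr level. Igf1r was 1.42 times Igf2r in replicate 1 and 1.36 times in replicate 2. By gene TPM Igf2 exceeded the gene of its clearance receptor, Igf2r, by 2.52 times in replicate 1 and 3.43 times in replicate 2. This ratio includes the short Igf2 transcripts.

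The binding protein genes Igfbp2, Igfbp4 and Igfbp5 summed to 75.4 TPM (replicate 1) and 79.9 TPM (replicate 2), against 34.4 and 45.1 TPM for Igf1 and Igf2 together. Igfbp4 (ENSMUSG00000017493.12, chr11:99041244-99054392, plus strand), whose protein is cut by the protease PAPP-A to free its ligand, had 30.8 TPM from 1362 counts in replicate 1 and 28.2 TPM from 1180 counts in replicate 2. Of the Igfbp4 level, the coding Igfbp4-201 held 14.85 and 11.79 TPM and the processed transcript Igfbp4-203 held 15.6 and 14.55 TPM. The sum of the binding protein genes thus includes TPM of a transcript not annotated as coding. Igfbp5 (ENSMUSG00000026185.8, chr1:72857932-72874884, minus strand) had 26.8 TPM from 3251 counts in replicate 1 and 29.9 TPM from 3814 counts in replicate 2. Igfbp2 (ENSMUSG00000039323.18, chr1:72824503-72852474, plus strand), an abundant carrier of the cerebrospinal fluid, had 17.8 TPM from 439 counts in replicate 1 and 21.7 TPM from 565 counts in replicate 2. Igfbp4 was thus the higher in replicate 1, and Igfbp2 and Igfbp5 were the higher in replicate 2. Igfbp2 and Igfbp5 are neighbours on chromosome 1, tail to tail with 5457 bases between them.

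Irs2 was the more abundant adaptor gene. Irs2 (ENSMUSG00000038894.7, chr8:10984681-11008458, minus strand) had 26.4 TPM from 3379 counts in replicate 1 and 31.1 TPM from 4173 counts in replicate 2. Irs1 (ENSMUSG00000055980.2, chr1:82233101-82291416, minus strand) had 7.92 TPM from 1473 counts in replicate 1 and 8.48 TPM from 1654 counts in replicate 2. Irs2 was 3.33 times Irs1 in replicate 1 and 3.67 times in replicate 2, and 3.32 and 3.64 times in the second table. Each gene has 1 annotated transcript, so this ratio did not depend on how reads were divided among transcripts. Irs4, another relative, had 17 counts in replicate 1 and 3 in replicate 2, and Irs3 had 2 and 4 counts, the last named for the family and after its values were seen.

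None of the 10 members was called apart between the animals. Counts were scaled by library and compared by the exact binomial test, two-sided, and p was adjusted by Benjamini-Hochberg over 18270 genes, and a gene was called apart at an adjusted p under 0.05 and a difference of at least 1.5-fold. Of all genes tested, 344 were apart, which is 1.88%, with 0.662% higher and 1.22% lower in replicate 1. The test compares the reads of 2 libraries and has no replicate check, since each animal gave 1 library. With no minimum fold, 5 of 10 members passed the adjusted p, against 11.4% of all genes tested (4.83% higher and 6.52% lower in replicate 1) and 17.4% of 9567 genes that averaged 300 counts or more, a group that holds every member. Without adjustment 6 members had a p under 0.05, as did 3983 of all genes. The median log2 ratio of replicate 1 over replicate 2 was -0.08 for the members and 0.00 for all genes tested.

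Igf2 differed most between the animals. Its scaled counts in replicate 1 were 0.746 times those in replicate 2 (95% exact Clopper-Pearson interval 0.694 to 0.801, exact adjusted p = 6.89e-14). Irs2 was at 0.834 times (0.796 to 0.873, exact adjusted p = 3.63e-13), Igfbp5 at 0.878 times (0.837 to 0.920, adjusted p = 1.84e-06, exact) and Igfbp2 at 0.800 times (0.705 to 0.908, adjusted p = 0.00664, exact). These 4 were lower in replicate 1, and all 4 passed the test without reaching 1.5-fold. Igfbp4 alone among the members passed the test in the other direction, at 1.19 times (1.10 to 1.29, adjusted p = 0.00035, exact). Irs1 lay at 0.917 times (0.854 to 0.984) with an exact adjusted p of 0.106. For the remaining 4 the interval held 1: Igf1 at 1.02 times (0.871 to 1.19), Igf1r at 0.997 times (0.951 to 1.05), Igf2r at 0.975 times (0.918 to 1.03) and Insr at 1.03 times (0.974 to 1.09). The width of these intervals follows the depth, Igf1 with its 320 and 323 counts having the widest. Among genes that averaged 300 counts or more, the middle 90% of ratios ran from 0.858 to 1.14, and Igf2, Igfbp2, Irs2 and Igfbp4 lay outside that range. The intervals cover counting error only.

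**Figure D2:**
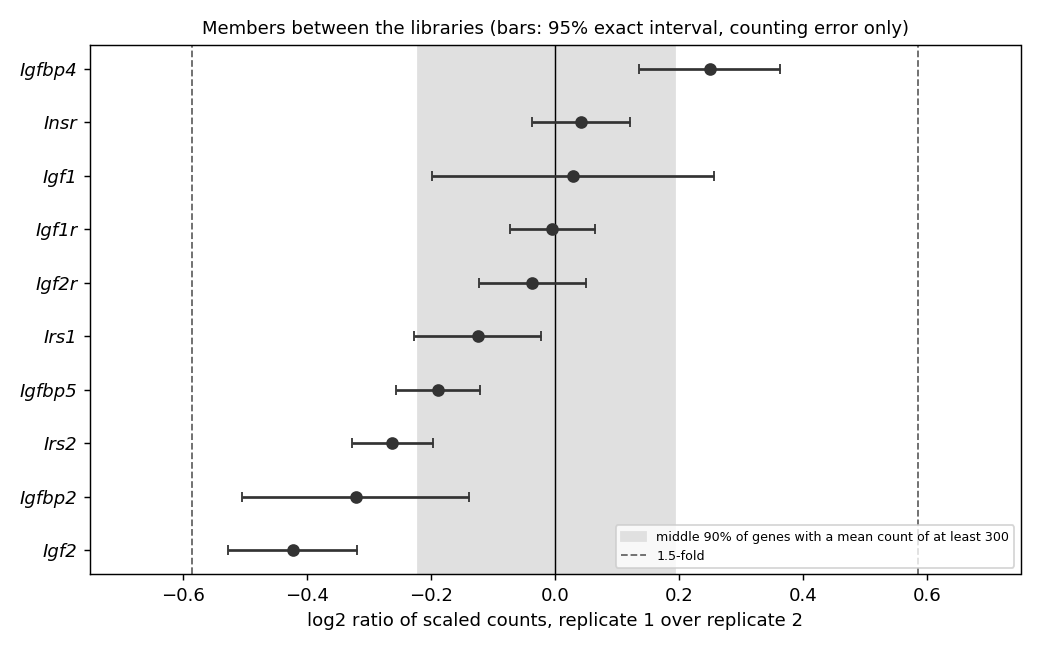
Log2 ratio of scaled counts, replicate 1 over replicate 2 (horizontal axis), for each member (vertical axis). Points are ratios, bars 95% exact intervals for counting error, the grey band the middle 90% of the 9567 genes that averaged 300 counts or more, and dashed lines 1.5-fold; no member reached a dashed line, Igf2 was the lowest and Igfbp4 the highest.

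Choroid plexus markers differed between the libraries in the same direction as Igf2, Igfbp2, Igfbp5 and Irs2. Igf2 and Igfbp2 are known to be made by choroid plexus and meninges. Of the 11 choroid plexus markers tested, 11 were lower in replicate 1 and 9 of them were apart (Ttr, Clic6, Aqp1, Slc4a5, Folr1, F5, Otx2, Sostdc1 and Kcnj13), led by the transthyretin gene Ttr with 81 counts in replicate 1 and 4202 in replicate 2. For meninges and fibroblasts the 12 markers summed to 63.3 and 63.9 TPM in replicates 1 and 2. By TPM Slc22a6 and Ranbp3l were slightly higher in replicate 1, but by scaled counts 11 of 12 were lower there. With no minimum fold 5 of these passed the adjusted p, against 11.4% of all genes tested. Ogn was apart, and Col1a1, Col1a2, Col3a1 and Slc6a20a, named after their values were seen, were at 0.755, 0.740, 0.748 and 0.759 times. Dcn, a proteoglycan of fibroblasts, was apart and higher in replicate 1, with 812 counts, against 495 in replicate 2. The sums include Dcn at 23.9 and 14.2 TPM, so they do not show the direction of the other markers. Endothelial markers summed to 114 and 110 TPM in replicates 1 and 2 and mural cell markers to 69.5 and 66.4 TPM. Of the 8 endothelial markers, 4 passed the adjusted p higher and 1 lower in replicate 1, with no minimum fold. Of the 8 mural cell markers 2 passed, both higher in replicate 1, and none of either list was apart. By scaled counts all 8 oligodendrocyte and all 9 interneuron markers were higher in replicate 1, with Mbp nearly level at 1.00 times. By TPM Mbp and Reln were lower there. With no minimum fold 6 oligodendrocyte and 2 interneuron markers passed the adjusted p, against 11.4% of all genes tested. The sums were 1819 and 1698 TPM for oligodendrocytes and 763 and 712 TPM for interneurons, and Opalin of the oligodendrocyte list was apart. Astrocyte markers summed to 1603 and 1600 TPM and microglial markers to 181 and 181 TPM. Of these, 3 of 8 astrocyte markers and 1 of 8 microglial markers passed the adjusted p with no minimum fold, all lower in replicate 1. The 9 markers of excitatory hippocampal neurons summed to 2870 TPM in replicate 1 and 2875 TPM in replicate 2, and none was apart. With no minimum fold 7 of them passed the adjusted p, 4 higher and 3 lower in replicate 1. The shares were 11.4% of all genes tested and 17.4% of those averaging 300 counts or more. Of these markers, named after their values were seen, Prox1, a marker of dentate granule cells, was at 0.710 times (exact adjusted p = 4.02e-64). Neurod2 was at 0.829 times (exact adjusted p = 5.56e-14). Wfs1 and Fibcd1, markers of the CA1 field, were at 1.19 and 1.17 times (exact adjusted p = 1.29e-15 and 2.54e-12). The rest of those that passed were Camk2a at 0.928 times, Neurod6 at 1.15 times and Nrgn at 1.05 times (exact adjusted p = 2.67e-62, 3.4e-06 and 0.000311). The blood list summed to 360 and 285 TPM in replicates 1 and 2, but 4 of its 5 genes share reads with near copies. None of the listed markers was at 0 in both libraries. The part of these cell types in the values of the members was not tested.

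The choice between spliced forms was examined for the 8 members with more than 1 annotated transcript, of 44 transcripts in all. In both libraries, both transcript tables put the same transcript highest for 6 of the 8. Igf2 and Igfbp4 were the exceptions. The first table gives each transcript's share of its gene's TPM, so a short transcript with few reads can hold a large share.

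Insr is spliced in a pair of known forms, which differ by a 36-base coding exon of 12 codons. The form without it is the A form, which binds IGF2 as well as insulin, and the form with it is the B form, typical of liver. The exon, at chr8:3181702-3181737 on the minus strand, is shown because the tables assign no reads to the spliced transcript that holds it. Capitals mark the exon and lower case the 24 bases of coding sequence on each side, from the annotated transcripts.
Insr-203 with the exon: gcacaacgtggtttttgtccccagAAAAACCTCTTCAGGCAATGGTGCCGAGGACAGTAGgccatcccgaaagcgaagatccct
Insr-201 without it: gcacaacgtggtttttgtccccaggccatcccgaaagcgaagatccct
Insr-201 held 57.1% of the gene's TPM in replicate 1 and 54.9% in replicate 2, or 86.3% and 85.1% of its counts. Insr-203, the only spliced transcript annotated with the exon, had 0 counts in both libraries and in both tables. The authors' posterior SD of that count was 2.53 in replicate 1 and 4.40 in replicate 2. The annotated Insr-203 is only 672 bases long, against 9355 bases for Insr-201, and shares all but 36 of its bases with Insr-201, so few reads could tell them apart. Those 36 bases also lie in Insr-204, an unspliced 4019-base transcript annotated as a retained intron, which had 115 counts in replicate 1 and 130 in replicate 2. Insr-202, another retained intron form at the start of the gene, held 35.8% of TPM in replicate 1 and 37.4% in replicate 2, but 9.22% and 9.86% of counts.

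Igf1 carries a comparable choice near its end. Its 52-base exon is not a multiple of 3 and so shifts the reading frame of the last exon, which changes the tail of the precursor peptide (the E peptide) from the Ea to the Eb form. The ends of the coding sequence of both forms are shown for this reason, with the 52-base exon in capitals. Igf1-202 ends at chr10:87930675-87930731 and Igf1-203 spans chr10:87915298-87930697 with the intron left out, both on the plus strand.
Igf1-202 coding end: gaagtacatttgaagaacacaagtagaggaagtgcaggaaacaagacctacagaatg
Igf1-203 coding end: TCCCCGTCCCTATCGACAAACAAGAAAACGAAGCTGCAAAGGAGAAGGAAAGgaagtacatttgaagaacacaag
The 23 lower case bases of Igf1-203 are also the first 23 bases of the last exon in Igf1-202, read in another frame. Transcripts that include the exon held 15.6% of Igf1 TPM in replicate 1 and 28.3% in replicate 2, on only 12.5 and 24.6 counts. The second table gave 13.4% and 29.4% for the same class, but placed them in Igf1-206, with 13.4% and 28.9%, where the first table favoured Igf1-203, with 10.6% and 19.8%. Igf1-202, which skips it, was the leading transcript, with 65.8% of TPM in replicate 1 and 60.1% in replicate 2, and 64.9% and 56.4% in the second table. Transcripts that begin at the upstream leader exon, the start used widely outside the liver, held 76.4% of TPM in replicate 1 and 82.9% in replicate 2. In the second table they held 64.9% and 60.0%, so the tables differ in which library is higher.

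Igf2 has several promoters, and 9 transcripts with different starts are annotated. For Igf2 the part of each RefSeq promoter window (GRCm38.p6) that lies outside annotated Igf2 exons is shown for 3 of its 4 windows, since the starts differ in use. In the window closest to the coding exons capitals mark GGGCGG, the GC box bound by Sp1-type factors. The windows are chr7:142666817-142667066, chr7:142661306-142661521 and chr7:142657497-142657746, all on the minus strand and given 5′ to 3′ in the direction of the gene.
Distal start: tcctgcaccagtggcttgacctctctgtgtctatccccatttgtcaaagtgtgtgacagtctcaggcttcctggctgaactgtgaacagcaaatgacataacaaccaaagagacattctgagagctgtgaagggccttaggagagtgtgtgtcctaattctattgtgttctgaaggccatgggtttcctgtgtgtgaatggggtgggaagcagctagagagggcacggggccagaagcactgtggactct
Middle start: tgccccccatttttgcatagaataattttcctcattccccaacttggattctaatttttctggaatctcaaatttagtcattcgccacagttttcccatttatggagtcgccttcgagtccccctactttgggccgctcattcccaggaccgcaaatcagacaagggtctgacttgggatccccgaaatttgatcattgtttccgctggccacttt
Proximal start: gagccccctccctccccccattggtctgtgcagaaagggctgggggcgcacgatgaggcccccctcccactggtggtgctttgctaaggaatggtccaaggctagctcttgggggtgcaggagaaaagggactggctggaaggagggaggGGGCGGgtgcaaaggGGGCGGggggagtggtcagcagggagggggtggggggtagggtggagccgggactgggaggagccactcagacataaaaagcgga
The transcripts that start at the proximal site, Igf2-201 and Igf2-202, held 47.2% of Igf2 TPM in replicate 1 and 42.2% in replicate 2, on 921 and 1184 counts. In the second table they held 27.1% and 30.3%. Igf2-203 from the distal start had 0 counts in replicate 1 and 69.1 in replicate 2, or 0 and 5.81 TPM, and 0 and 5.71 TPM in the second table. The authors' posterior SD of these counts was 9.90 and 23.9, and the rest of Igf2-203 overlaps exons of the other transcripts. Igf2-204, which starts at the middle site, held 2.08% and 0.53% in the first table and 15.4% and 8.62% in the second, in replicates 1 and 2. Igf2-205, the longest form at 4722 bases, starts between the proximal and middle sites and is named for its counts. It held 15.6% and 18.3% of Igf2 counts in the first table, and 6.82% and 7.87% of TPM.

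The Igf2 form that ranked highest differed between libraries and tables. Igf2-207, of 376 bases, led in replicate 1 of the first table with 32.0% of TPM on 57.1 counts, while Igf2-201 led in replicate 2 with 24.65%. Igf2-207 held 15.45% in replicate 2, yet had 0 counts in the second table. There Igf2-209, of 462 bases, led with 42.4% in replicate 1 and 35.0% in replicate 2, against 0% and 0.59% in the first table. By counts Igf2-201, of 3708 bases, was the largest form in the first table, with 44.0% in replicate 1 and 44.8% in replicate 2. The tables agree on which library had more Igf2-201 in TPM, at 7.70 and 10.3 TPM and at 8.88 and 16.6 TPM. Igf2-208, a non-coding form, held 11.9% and 19.5%. All its bases lie in the last exon of Igf2-201, but an intron within that exon is spliced out. The protein-coding entry Gm49394 overlaps 3596 exonic bases of Igf2 on the same strand and had 0 counts in both libraries, and Mir483, inside the gene, was also at 0.

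**Figure D3:**
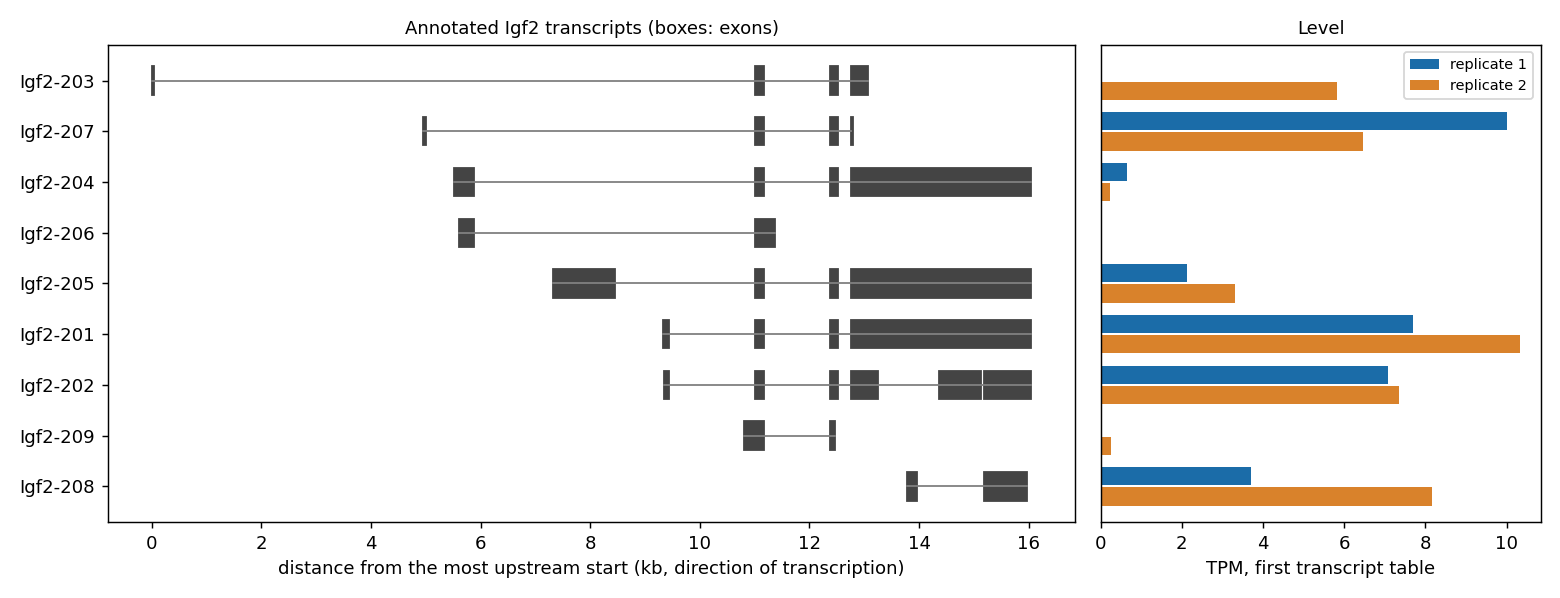
Annotated Igf2 transcripts on the left, by distance in kb from the most upstream start in the direction of transcription (boxes are exons), and their TPM in the first transcript table on the right, with replicate 1 above replicate 2. Igf2-203 from the most upstream start has a bar in replicate 2 only, at 5.81 TPM, and Igf2-201 has bars of 7.70 and 10.3 TPM in replicates 1 and 2.

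Igfbp4 was divided differently by the tables. The first table gave Igfbp4-203, a processed transcript of 785 bases, 50.7% of TPM in replicate 1 and 51.5% in replicate 2, on 220 and 215 counts. The second gave it 0 and placed 47.3% and 43.2% in Igfbp4-202, of 799 bases, to which the first table gave 0 counts. These transcripts share 652 bases. The full coding transcript Igfbp4-201 held 48.2% and 41.8% of TPM in the first table, 40.4% and 37.9% in the second, and 83.7% and 80.4% of the counts in the first. Igfbp4-206 held 12.3% and 18.9% in the second table and 1.11% and 2.36% in the first.

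The other members had a single dominant form. Igf1r-201 held 80.1% of TPM in replicate 1 and 84.3% in replicate 2, with the rest in transcripts annotated as retained introns. Igf2r-201 held 93.4% and 95.9%, and Igfbp2-201 held 97.9% and 99.4%, all in the first table. In the second table Igf1r-201 held 75.2% and 78.3%, Igf2r-201 93.7% and 94.9%, and Igfbp2-201 89.6% and 92.5%. Igfbp5-201 held 100% in both libraries in the first table and 90.4% and 96.2% in the second, which gave the rest to Igfbp5-202. All bases of Igfbp5-202 lie in exons of Igfbp5-201, but they are joined differently, in 6 exons against 4.

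**Figure D4:**
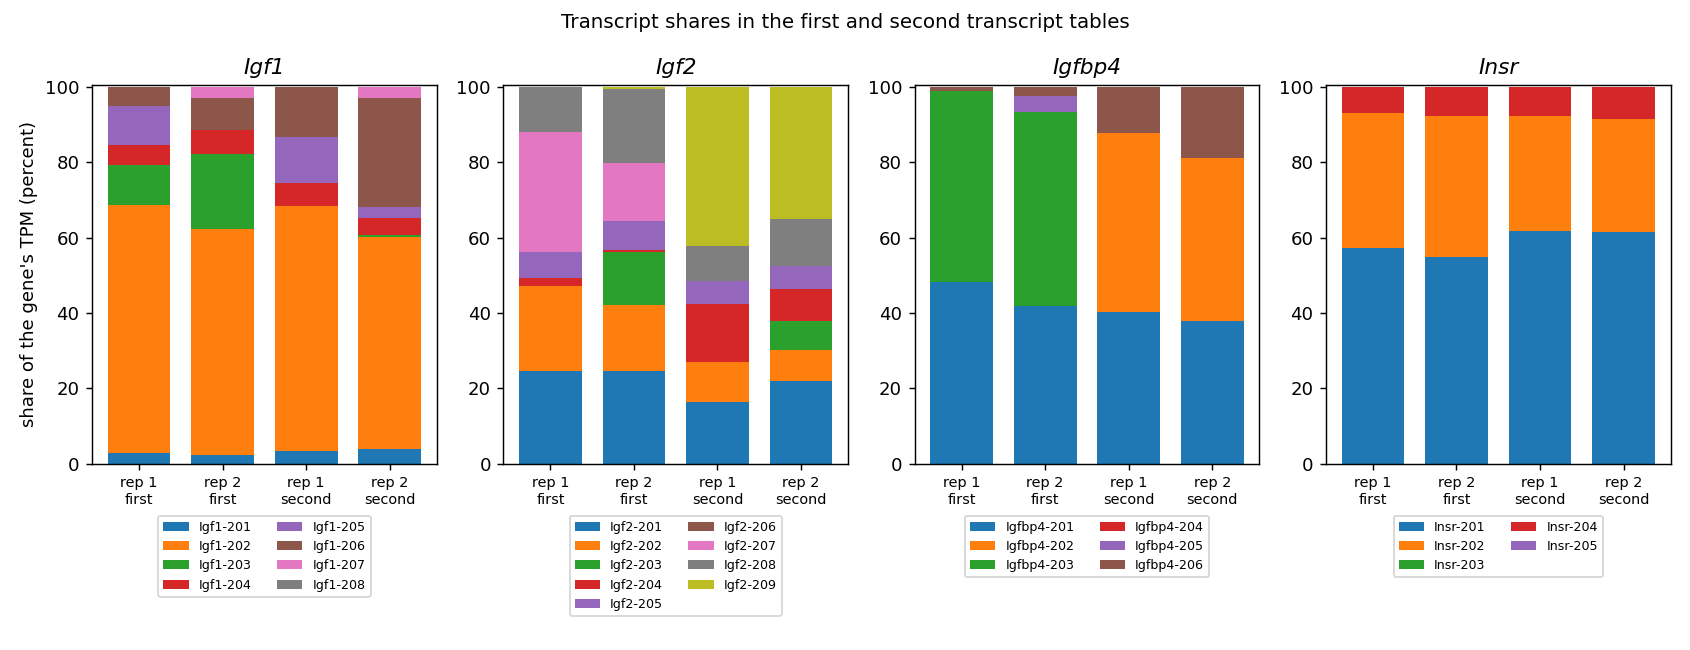
Share of each gene's TPM by transcript, in percent (vertical axis), for Igf1, Igf2, Igfbp4 and Insr; each panel has replicate 1 and replicate 2 of the first transcript table and then replicate 1 and replicate 2 of the second. Igf1-202 and Insr-201 were the largest in all 4 columns, at 65.8% and 57.1% in replicate 1 of the first table, whereas the colours of Igf2 and Igfbp4 change between the tables.

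Transcripts on the opposite strand were few in the gene table. Airn, the antisense RNA that silences the paternal Igf2r copy in most mouse tissues, had 25 counts in each library, at 1.29 and 1.19 TPM in replicates 1 and 2, but 9.26 and 7.39 TPM in the second table. Igf1os, opposite Igf1, had 0 TPM in both libraries in the gene table and 5.07 and 5.81 TPM in the second. Igf2os, opposite Igf2, had 8 counts in replicate 1 and 5 in replicate 2. H19, the maternally expressed RNA gene imprinted together with Igf2, had 2 counts in replicate 1 and 14 in replicate 2. Igf2bp2, whose protein binds Igf2 mRNA, had 0.19 and 0.18 TPM. Gm9747, whose 2822 exonic bases lie opposite Irs1, was at 0 counts, and 9530052E02Rik, opposite Irs2, had 0.49 and 0.44 TPM. How the counting treated strand is not given in the sources used here. Reads of these genes and of their partners are therefore uncertain. No member was marked as sharing reads with a near-identical copy.

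Promoter windows of RefSeq, each 250 bases before to 50 bases after a start, matched 9 of the 10 members, all but Insr, in 13 windows. Searched on both strands, the TATA box TATAAA was in 1 of these windows, that of Igfbp4, and in 13.6% of all 32851 windows. The GC box GGGCGG was in 7 of the 13 and in 35.7% of all windows. The FoxO motif TGTTTAC and the cyclic AMP element TGACGTCA were in none of the 13, and in 3.65% and 1.79% of all windows. The GC content of the member windows ran from 49.7% to 76%, with a median of 52.7% over all windows.

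Most of the pathway beyond these 10 genes was expressed. Of 95 other genes in 9 lists, 72 reached 1 TPM in both libraries. Of the 80 with enough counts to test, 2 were apart, 1 in each direction, against 1.88% of all genes tested. With no minimum fold 12 passed the adjusted p, 2 of them higher and 10 lower in replicate 1, against 11.4% of all genes. Irs4 was higher in replicate 1 with 17 counts, against 3 in replicate 2 (5.15 times, exact adjusted p = 0.0157). Stc2, a stanniocalcin that inhibits the protease PAPP-A, had 106 counts in replicate 1 and 169 in replicate 2 (0.647 times, exact adjusted p = 0.00555).

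Genes that bind or release IGFs were led by Htra1, a secreted protease that can cut IGF-binding proteins, at 103 TPM in replicate 1, against 115 TPM in replicate 2. Ide, the insulin-degrading enzyme, had 17.2 and 14.9 TPM, and Igfbp7, a distant member of the family with low affinity for IGFs, had 10.3 and 11.9 TPM. Among the other binding proteins, added here for the family after their values were seen, Igfbp3 had 5.21 and 6.10 TPM, Igfbp6 had 3.50 and 3.25 TPM and Igfbp1 had 1 count in each library, so all of them lay below Igfbp2, Igfbp4 and Igfbp5. Of the receptor partners, the sorting receptor Sorl1 had 82.4 and 77.6 TPM, the phosphatase Ptpn11 37.7 and 38.3 TPM and the receptor phosphatase Ptprf 33.6 and 31.9 TPM. None of the 6 tested genes of that list passed the adjusted p, against 11.4% of all genes tested.

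Adaptors at the receptor were led by Grb2, which links receptors to Ras, with 77.1 and 71.5 TPM in replicates 1 and 2. The neuronal adaptor Shc3 had 52.6 and 52.0 TPM and Sh2b1 had 29.2 and 28.9 TPM. In the PI3-kinase and Akt list 16 of 17 genes reached 1 TPM in both libraries. The regulatory subunit Pik3r2 had 63.4 and 62.3 TPM and the kinase Akt1 had 60.1 and 61.9 TPM. Of these 16 tested genes 3 passed the adjusted p with no minimum fold, each lower in replicate 1, and neither Pik3r2 nor Akt1 was among them. The share over all genes tested was 11.4%, and 17.4% over those averaging 300 counts or more, so this count lies near the background.

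All 15 genes of the TSC, mTORC1 and mTORC2 list reached 1 TPM in both libraries. The ribosomal protein gene Rps6, a target of S6 kinase that shares reads with near copies, had 157 and 163 TPM. Tsc2, which holds mTORC1 in check, had 78.0 and 72.8 TPM, and its target Rheb had 45.4 and 44.0 TPM. Of the 15 tested genes 1 passed the adjusted p with no minimum fold, against 11.4% of all genes tested. In the FoxO and GSK3 list Gsk3a had 80.1 and 79.5 TPM and Gsk3b 66.6 and 61.5 TPM, both kinases inhibited by Akt, at 0.985 and 1.03 times by scaled counts (exact adjusted p = 0.808 and 0.190).

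Of the 6 genes of the FoxO and GSK3 list 2 passed the adjusted p with no minimum fold, against 11.4% of all genes tested and 17.4% of those averaging 300 counts or more. Foxo3 had 16.7 and 19.8 TPM in replicates 1 and 2, at 0.834 times by scaled counts (exact adjusted p = 1.69e-08). Foxo1, chosen after its values were seen, was at 0.849 times (exact adjusted p = 9.83e-05). Foxo4 and Foxo6, chosen in the same way, were at 0.847 and 0.890 times with exact adjusted p of 0.0544 and 0.150. None reached 1.5-fold. Among glucose transporters Slc2a3, the neuronal transporter, had 45.95 and 43.6 TPM and Slc2a13 had 28.5 and 28.5 TPM. Slc2a1, the transporter of the blood-brain barrier, had 30.3 and 41.1 TPM in replicates 1 and 2, at 0.726 times (exact adjusted p = 1.2e-22), a difference close in size to that of Igf2. Slc2a1 is also strongly expressed in choroid plexus, whose markers differed as described, and the part of that tissue was not tested.

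**Figure D5:**
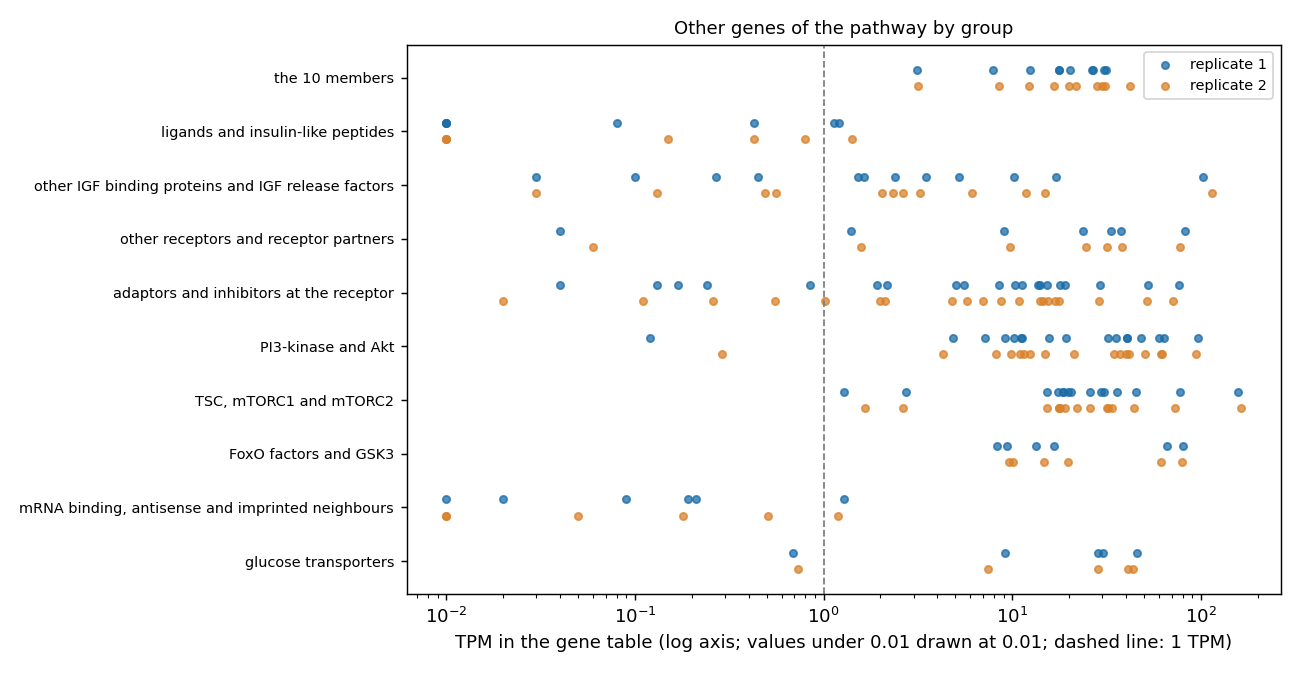
TPM in the gene table (horizontal log axis) of the 10 members and of the 95 other genes of the pathway in 9 lists (rows), 1 point per gene and library, with replicate 1 above replicate 2 in each row. The members lie between 3.13 and 41.9 TPM, within the spread of the receptor, PI3-kinase and mTOR lists, while most ligand genes and all mRNA-binding and antisense genes but Airn lie left of the dashed line at 1 TPM.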

How the data were processed

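Total RNA of 2 libraries was measured, each from 300 ng of RNA with ERCC spike-ins. The authors' gene table and first transcript table hold expected counts, TPM and the percent of each gene in each transcript, with column names that RSEM writes, per the file headers. The second transcript table, deposited with estimated counts and TPM, has the columns kallisto writes. Per the deposited description, the first tables derive from reads aligned to the transcriptome, the second from 1 FASTQ file with an index, on mm10 with GENCODE M21. The sources used here give neither versions nor an aligner, nor how strand was treated. Reads of hybrid mice were assigned to an mm10 reference, and an effect of this on the counts was not tested.

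Expected counts were rounded and scaled by TMM (edgeR 4.0.16, R 4.3.3). Genes averaging 10 expected counts or more were compared by the exact binomial test (scipy 1.17.1). Folds carry 0.5 added counts. Rows of ERCC transcripts, 0.421% and 0.408% of counts in replicates 1 and 2, stayed out of totals and tests. With 1 library per animal and 1 group, no replicated test was possible, and any p measures counting error between libraries. No molecular identifiers are described, so counts are not taken as independent molecules. Alternatives were median-of-ratios factors (DESeq2 1.42.0), ERCC totals, no filter, the second table, other call rules, TPM ratios with 0.01 added, TPM over protein-coding genes, and each library alone. The test was tested on simulated data.

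Shared reads were marked where a gene's count was not whole by more than 0.005 with a posterior standard deviation of at least 1% of it. Named are all members. From each pathway list the 3 highest genes, those apart and those at 0 are named, except for an item not reported here. Of the marker lists, those apart and genes among the 2 highest are named, with other markers chosen after their values were seen. Transcripts with a mean share of at least 10% in either table are named, with exceptions stated in the text. The members and lists were chosen with earlier results of these data known. The background of genes averaging 300 counts was chosen after seeing the data. A comparison of protein sequences was not made.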

Additional observations from a re-analysis of the deposited data

How the results depend on the processing

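With no minimum fold the count of members apart went to 5 in place of 0, and the count of all genes apart to 2074 in place of 344. With fold alone it was 0 for the members and 1325 for all genes. Median-of-ratios factors, ERCC totals, no filter and the second table left both counts within 1.5 times of the first values. The log2 ratio of 3 members changed sign around 0: Igf1, at 0.0286, became -0.0110 with ERCC totals, -0.0125 in the second table and -0.0228 by TPM. Igf1r, at -0.00452, became 0.00714 in the second table and 0.0861 by TPM, and Igf2r, at -0.0371, became 0.0246 by TPM. The other 7 kept their direction in every alternative run, and none of the 3 passed the test; the cause was not tested. Irs1, with an adjusted p of 0.106 in the exact binomial test, had 0.0151 with ERCC totals and 0.0561 to 0.154 under the others. Levels of all 10 members moved by more than 1 SD in the second table and when TPM was taken over protein-coding genes only. Leaving out a library gives the level of the other one, which with 2 libraries is no check of stability, and ends the test between them. No paired analysis was possible because there is 1 group. At 320 counts, as for Igf1, the 95% interval of the ratio ran from 0.871 to 1.19, so a smaller difference was not detectable at this depth.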
